A study of Mus musculus with 7 samples.

Results

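The regions described here are 11474 late G1 peaks that were narrow and carried many sequenced fragments. They were all peaks on the 19 autosomes of the late G1 list with a length under 300 bp and a pileup of 100 or more. They made up 11474 of 360498 autosomal peaks and of 383721 late G1 peaks in all. Pileup is the fragment coverage of a peak as the authors' peak caller gave it, without scaling to depth. Its values are not whole numbers, so it is not a plain count of stacked fragments. The regions were chosen by length and pileup, so both are given below as a description, and no result rests on them.

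The study used ATAC-seq on endothelial cells sorted from mouse retinas at postnatal day 6. All mice carried the FUCCI reporter, a fluorescent label of cell cycle phase, and living cells with CD31 and without CD45 were taken as endothelial. Cells with no reporter colour formed the early G1 group, with 3 libraries, and red cells formed the late G1 group, with 4 libraries. Per the file headers, each group was merged before peaks were called, giving 137191808 early and 124693948 late fragments and 1 peak list per group. No value therefore has a replicate error, no test between groups was possible, and intervals cover counting error only. They are exact binomial 95% intervals unless another kind is named.

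In ATAC-seq a transposase cuts DNA that is free of nucleosomes, so fragments gather at active promoters and enhancers. Open promoters are often CpG-rich, and open sites usually are wider than a single fragment because many cells are cut at many positions. A stack of fragments as wide as 1 fragment can arise from a short protected or open site, from many amplified copies of the same fragment, or from reads of a repeat gathered at the few copies that the assembly holds. The authors kept duplicate fragments, per the file headers, and the lists do not give the number of distinct fragments under a peak. The part of duplicate fragments in the values below was not tested.

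Sequences of 6 of the regions are printed here because they show the kinds of DNA found, from a copy of mitochondrial DNA to single-copy sequence and promoters. They are from the plus strand of mm10. In the first, capitals mark bases identical to the mitochondrial genome. In the promoters of Litaf and Oasl1, capitals mark a 9-base word of the mouse major satellite, a repeat found beside centromeres. In the others, capitals mark motif words that were searched.
chr12:97061432-97061668, between genes: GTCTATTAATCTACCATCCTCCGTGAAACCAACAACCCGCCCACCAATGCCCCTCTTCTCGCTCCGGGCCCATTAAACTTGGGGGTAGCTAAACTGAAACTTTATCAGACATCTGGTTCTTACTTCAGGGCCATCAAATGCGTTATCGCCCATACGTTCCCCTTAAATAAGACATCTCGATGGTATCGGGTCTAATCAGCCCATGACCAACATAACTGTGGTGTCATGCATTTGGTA
chr16:10975068-10975311, promoter of Litaf: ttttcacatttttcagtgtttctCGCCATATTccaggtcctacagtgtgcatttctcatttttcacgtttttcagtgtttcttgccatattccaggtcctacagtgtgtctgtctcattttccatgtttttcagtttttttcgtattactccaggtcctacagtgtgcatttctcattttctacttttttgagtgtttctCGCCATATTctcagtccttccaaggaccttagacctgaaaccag
chr5:114922446-114922686, promoter of Oasl1: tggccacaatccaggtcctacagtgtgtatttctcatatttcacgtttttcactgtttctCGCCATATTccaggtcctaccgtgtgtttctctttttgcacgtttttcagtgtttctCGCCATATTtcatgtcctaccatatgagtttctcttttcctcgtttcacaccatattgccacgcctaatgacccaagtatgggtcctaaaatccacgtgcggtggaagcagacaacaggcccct
chr7:124804240-124804480, between genes: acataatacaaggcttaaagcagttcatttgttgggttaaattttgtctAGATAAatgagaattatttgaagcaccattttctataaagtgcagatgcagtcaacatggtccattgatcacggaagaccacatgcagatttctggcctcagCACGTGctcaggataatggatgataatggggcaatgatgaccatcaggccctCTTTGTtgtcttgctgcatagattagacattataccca
chr7:80028656-80028897, promoter of Zfp710: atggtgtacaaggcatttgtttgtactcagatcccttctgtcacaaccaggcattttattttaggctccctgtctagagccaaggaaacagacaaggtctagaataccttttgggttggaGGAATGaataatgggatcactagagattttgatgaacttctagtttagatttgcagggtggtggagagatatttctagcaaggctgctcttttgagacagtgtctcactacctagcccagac
chr13:60601173-60601440, promoter of Dapk1: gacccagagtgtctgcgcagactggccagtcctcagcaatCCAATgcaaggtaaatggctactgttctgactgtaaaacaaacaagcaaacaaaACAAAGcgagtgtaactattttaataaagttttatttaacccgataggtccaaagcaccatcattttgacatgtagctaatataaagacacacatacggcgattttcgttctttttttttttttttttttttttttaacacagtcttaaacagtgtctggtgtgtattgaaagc

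The whole 237 bases of the chromosome 12 region were identical to mitochondrial DNA, so reads from either source give the same letters. The Litaf and Oasl1 regions each held 2 satellite words. The strongest single-copy region, on chromosome 7, held 1 SOX, 1 GATA and 1 E-box word, the Zfp710 region held 1 TEAD word, and the Dapk1 region held 1 NFY and 1 SOX word. Such matches are descriptions of the letters only.

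The narrow late G1 peaks had a second rise in number at high pileup, with no gap at the limit of 100. Their pileup ran from 100 to 20821 with a median of 172, and the middle 50% lay between 134 and 228. Their length ran from 236 to 299 bp with a median of 266 bp. The shortest equalled the 236 bp fragment size in the late G1 header, which was the lowest length of all autosomal late peaks as well. Among all 33634 narrow autosomal late peaks, the number per doubling of pileup fell from 13828 at a pileup of 19 to 25 to 5210 at 90 to 100. It rose again to 8021 at 150 to 200 and then fell to 1730 at 300 to 500. Only 42 regions reached a pileup of 500 and 7 reached 1000.

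**Figure D1:**
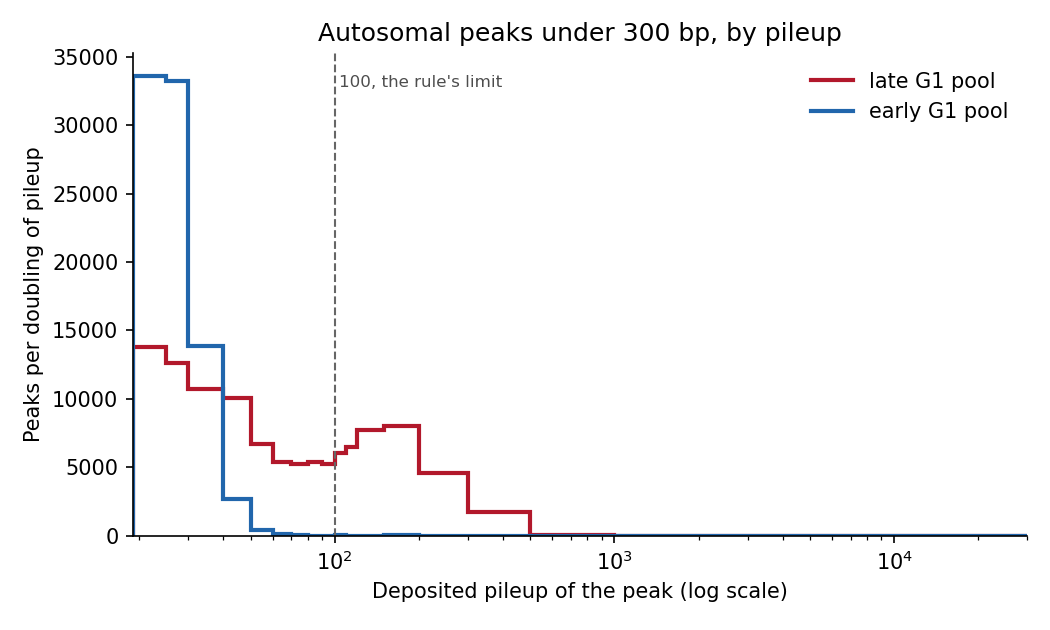
Number of autosomal peaks under 300 bp per doubling of deposited pileup (log axis) in the late G1 and early G1 lists. The late list has a second rise above the limit of 100, to 8021 per doubling at 150 to 200, and the early list has almost no peak there.

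The same limits applied to the early G1 list found only 41 autosomal peaks. These were 0.142% of its 28836 narrow peaks, against 34.1% of the narrow late peaks. Pileup is not scaled to depth, and the early pool held more fragments. High pileup in the late list was not a property of narrow peaks alone. The share with a pileup of 100 or more was 34.3% at 250 to 300 bp, 33.4% at 300 to 350 bp, 30.5% at 400 to 500 bp and 16.7% at 2000 bp or more. In the early list it stayed between 0.0553% and 0.151% in every width class. How the pileup sums up coverage over a wide peak was not tested, so shares at unlike widths may not compare. The limits cut through a continuous population. High-pileup late peaks numbered 150 at 299 bp, 130 at 300 bp and 166 at 301 bp, and the 5 regions nearest above the pileup limit had values of 100 to 100.03, against 99.9 to 99.98 for the 5 nearest below.

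Of the 7 regions with a pileup of 1000 or more, 1 was a mitochondrial copy and 1 was satellite-like. The satellite word was chosen after the strongest regions had been seen, so these values are a description. The mitochondrial copy at chr12:97061432-97061668 had a pileup of 2392. The satellite-like regions at the promoters of Litaf, which encodes an endosomal membrane protein, and Oasl1, an interferon-induced gene, had pileups of 1145 and 955. The single-copy region on chromosome 7 printed above had 706, and it lay 640316 bases from the nearest protein-coding start site. Of the 42 regions with a pileup of 500 or more, 28 were single-copy sequence, 4 had other copies in the genome, 3 held a satellite word and 1 was the mitochondrial copy.

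For most of the regions, a search for other copies found none in the genome. That search can miss repeats, as the satellite-like Litaf and Oasl1 regions also had 0 copies. Regions called single-copy are among those for which it found none. At least 1 other genomic copy, over 80% of the length at 90% identity or more, was found for 10.6% of them (10.0 to 11.1). Windows of 266 bp tiled over the sequenced autosomes gave 13.1%, narrow peaks with a lower pileup gave 15.5% and wide peaks of high pileup gave 10.4%. At 98% identity the shares were 3.97% of the regions and 6.54% of genome windows. Soft-masked repeats filled 50% or more of the bases in 24.5% of the regions (23.7 to 25.3), against 26.5% of genome windows and 28.4% of the other narrow peaks. The share with a copy stayed between 10.1% and 11.5% in every pileup class from 100 to 500, and was 14.3% (4.81 to 30.3) from 500 to 1000 and 6 of 7 at 1000 or more. Median GC content was 43.1%, against 41.7% in genome windows and 44.5% in the other narrow peaks.

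Most regions lay between genes or in introns, in nearly the proportions of the genome itself. Intergenic DNA held 57.0% of centres and 58.0% of genome windows, and introns held 38.4% and 37.0%. Coding exons held 1.18% of both, and untranslated exons held 1.27% and 1.30%. The median distance from a centre to the nearest protein-coding start site was 52.4 kb, against 56.3 kb for genome windows.

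Promoters, taken as 1 kb on either side of a protein-coding start site, held fewer of these regions than of other late peaks. The centre lay in a promoter for 255 of 11474 (2.22%, 1.96 to 2.51). Over all autosomal late peaks that share was 3.65%, in genome windows it was 2.57%, in the other narrow peaks it was 3.41% (3.18 to 3.66) and in wide peaks of high pileup it was 2.70% (2.59 to 2.81). The regions were thus at 0.865 times the genome share, where the other narrow peaks were at 1.33 times. With the genome windows weighted to the regions' GC and repeat content, a comparison added after the data were seen, the expected share was 2.82% and the ratio 0.789. The deficit was not seen at every width: for regions under 250 bp the share was 2.60% and the ratio 1.01.

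**Figure D2:**
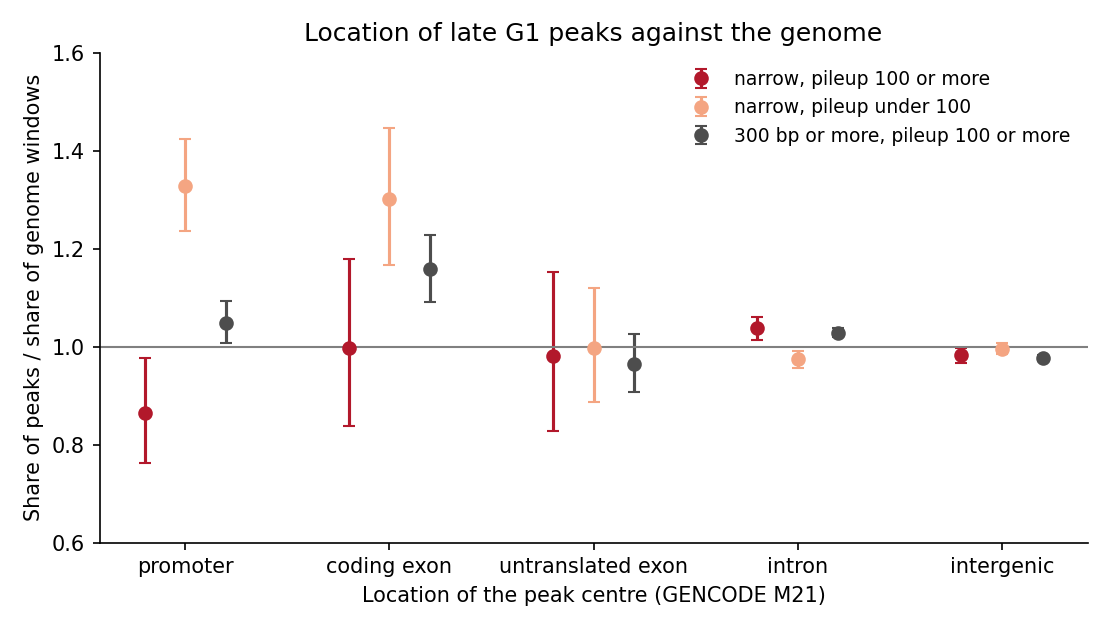
Share of peak centres in each annotated location divided by the share of genome windows there, for 3 classes of late G1 peaks, with exact 95% intervals. The narrow high-pileup peaks sit at 0.865 for promoters, and the narrow peaks of lower pileup sit at 1.33.

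The promoter regions were spread over genes of many functions. A region lay at the promoter of 259 of 20780 autosomal protein-coding genes (1.25%). After Litaf and Oasl1, the highest pileup was 490 at Pkm, which encodes the pyruvate kinase of glycolysis, with a centre 950 bases from the start. Zfp710, a zinc finger gene, had 468 and Khk, which encodes ketohexokinase of fructose metabolism, had 455. Chml had 415, at a site that also lay inside the gene Opn3. Next were Mrm1, for a mitochondrial RNA methyltransferase, with 404, and Mob3b, of the MOB kinase-activator family, with 389. Birc6, for an inhibitor of apoptosis, had 387 and Dapk1, for a death-associated kinase, had 386. None of these is a gene known chiefly for endothelial function.

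Of the genes in 14 lists of retinal cell types and pathways, only Rlbp1 had a region at its promoter. Rlbp1 encodes a retinoid-binding protein of Müller glia, and its region at chr7:79386071-79386358 had a pileup of 204 and met no early peak. None of 20 endothelial, 19 arterial, 14 venous, 14 tip cell or 20 Notch pathway genes had one. With 1.25% of all genes carrying such a region, a list of this size would hold few or none.

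Gene bodies held regions at about the density of the autosomes as a whole. A region lay inside 3318 protein-coding genes (16.0%), or 4.89 per Mb of gene (4.76 to 5.03, exact Poisson 95% interval), against 4.79 per Mb of autosome. Among endothelial genes 5 of 20 held 1 region each, at 3.85 per Mb (1.25 to 8.98). Single-copy sites among these lay in introns of Emcn (pileup 147), Vwf (106) and Mmrn2 (118) and in a coding exon of Ets1 (157). Emcn encodes a surface sialomucin, Vwf the clotting factor stored by endothelium, and Ets1 a transcription factor. Arterial genes held regions in 4 of 19, at 7.07 per Mb (2.59 to 15.4). These were Efnb2, the arterial ephrin ligand (276), Notch1 (419 and 124), Nrp1, a VEGF co-receptor (187), and Vegfc, a lymphatic growth factor (228 and 213). Venous genes held regions in 3 of 14, namely Emcn, Selp (171) and Ctsc (164), and tip cell genes in 2 of 14, namely Ramp3 (154) and Plvap (115).

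A list of signalling genes gave the highest count for any list, though not the highest density. Of 24 TGF-beta and BMP pathway genes, 10 held a region, all different genes, at 7.24 per Mb (3.47 to 13.3). Over all genes, 16.0% held a region. Housekeeping genes had a higher density, at 17.8 per Mb (3.66 to 51.9). The receptors Tgfbr2 (272) and Acvr2a (191) each held 1. The signal carriers Smad1 (432), Smad2 (200), Smad3 (416) and Smad5 (195), the inhibitory Smad6 (294) and Smad7 (137), the repressor Ski (145) and the ligand Tgfb2 (194) held 1 each as well. The region of Smad5 was in an untranslated exon and the other 9 were in introns. Of 20 Notch pathway genes, 4 held regions: Notch1, the coactivators Maml2 (170 and 207) and Maml3 (171, 192 and 198), and the glycosyltransferase Mfng (134). Of 32 G1 to S genes only Ccnd3, for cyclin D3, held 1 (206), at 1.03 per Mb (0.0260 to 5.72). The interval of every list named here spans the 4.89 per Mb of all genes.

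Genes of other retinal cells held regions as well. Photoreceptor genes had them in 2 of 11, Rcvrn (252) and Prph2 (173), at 10.7 per Mb (1.29 to 38.6). Retinal neuron genes had them in 4 of 12, Rbpms (205), Elavl4 (164), Syt1 (202) and Calb2 (210), at 3.79 per Mb (1.03 to 9.71). Both intervals span the 4.89 per Mb of all genes, of which 16.0% held a region. Pericyte and smooth muscle genes had them in 2 of 8, blood and microglia genes in 1 of 10 and housekeeping genes in 3 of 16. Astrocyte genes had none among 6. At any pileup or width, a late peak lay within 1 kb of a start site for 15 of 20 endothelial genes, 8 of 11 photoreceptor genes, 4 of 10 blood and microglia genes and 68.5% of all genes. The late share was lowest for pericyte and smooth muscle genes, at 3 of 8. An early peak lay there for 94.1% of all genes and for 17 of 20 endothelial genes. It did so for 11 of 11 photoreceptor genes and 10 of 10 blood and microglia genes. Late shares were thus alike for endothelial and photoreceptor genes, and which cells these peaks came from was not tested.

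Along the chromosomes the regions lay almost as evenly scattered points would, and so did the late peaks most like them. The median distance between neighbours was 143.9 kb, against 144.5 kb for random placement at the same number per chromosome, a ratio of 0.995 over 11455 pairs. The same ratio was 0.992 for the other narrow peaks and 0.988 for wide peaks of high pileup. Neighbours nearer than 10 kb made up 5.32% of pairs against 4.69% for random placement, and nearer than 200 kb 61.7% in both. No pair of centres was nearer than 1.22 kb. From edge to edge, no other late peak of any kind lay nearer than 945 bases, the lowest gap among all autosomal late peaks as well. Random placement had no such limit, so the lack of nearer pairs is not a result about these regions. In 2353 windows of 1 Mb the mean was 4.78 regions and the variance 1.04 times the mean. A window with none was seen 27 times (1.15%, where a Poisson count gives 0.837%), and the fullest window held 14.

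**Figure D3:**
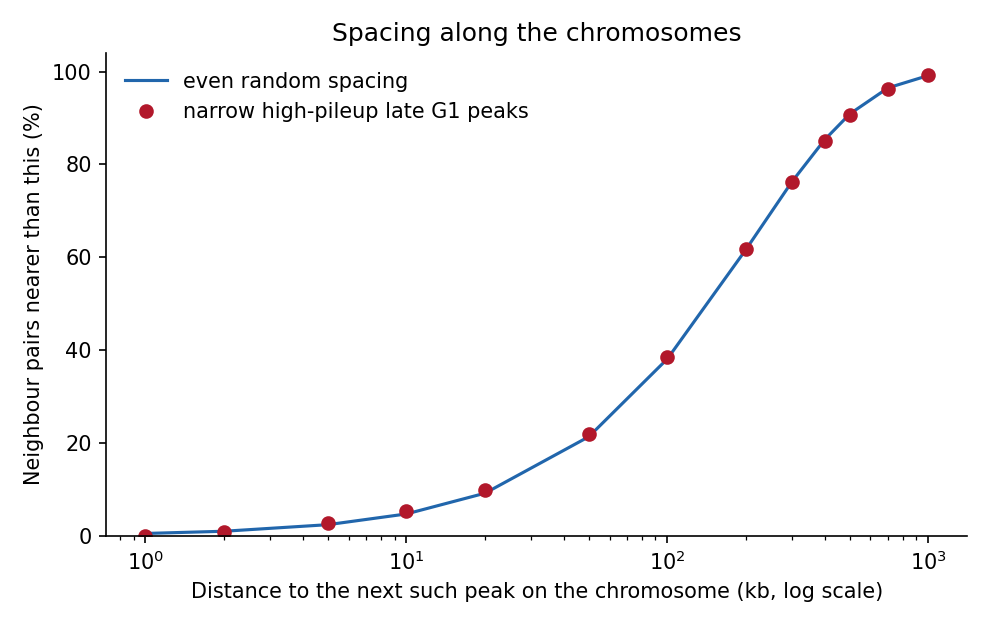
Cumulative share of neighbour pairs of narrow high-pileup late G1 peaks nearer than a given distance (kb, log axis), as points, and the curve for even random spacing. Points and curve lie together, with 61.7% of pairs nearer than 200 kb in both.

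The 19 autosomes carried the regions at similar density. It ran from 4.36 per Mb on chromosome 14 to 5.14 on chromosome 7, around 4.79 overall. The median pileup ran from 166 on chromosome 11 to 181 on chromosome 4. Promoter share varied more, from 0.959% on chromosome 18, where genome windows gave 1.75%, to 5.08% on chromosome 7, where they gave 4.30%.

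Overlap with the early G1 list, which the choice of regions did not use, was slightly above the level of shifted positions. Of the 11474 regions, 6142 (53.5%, 52.6 to 54.4) met an early peak by at least 1 bp. Over all autosomal late peaks, most of them wider, the share was 68.3%, and for the other narrow peaks it was 54.1% (53.4 to 54.7). The early list covered 43.1% of autosomal bases, so many positions meet it whatever they are. Regions moved by a random offset along the chromosome, 100 times over, met an early peak in 49.4% ± 0.472 of cases (SD over offsets), with a range of 48.1 to 50.3%. The observed share was 1.08 times that, a difference of 4.15 percentage points. The ratio was 1.10 for the other narrow peaks and 1.08 for wide peaks of high pileup.

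The ratio was alike across annotated locations, and the share was alike across pileups from 100 to 500, but the ratio varied with GC and repeat content. It was 1.08 outside promoters, and 1.09 for the 8312 single-copy regions with under 50% soft-masked bases. Against genome windows in the same location, it was 1.07 at promoters, 1.08 in coding exons, 1.06 in untranslated exons, 1.08 in introns and 1.08 between genes. Across chromosomes the share ran from 47.8% on chromosome 3 to 58.0% on chromosome 16. Genome windows gave 47.5% on chromosome 3 and 49.0% on chromosome 16. Overlap was 53.7% at a pileup of 100 to 120, 54.5% at 120 to 150, 52.2% at 150 to 200, 53.5% at 200 to 300 and 54.4% at 300 to 500. It was 22 of 35 from 500 to 1000 and 7 of 7 at 1000 or more. GC content moved with the overlap. Among regions with under 50% masked bases it rose from 41.6% at a GC content below 35% to 65.6% at 50% or more, and in genome windows from 36.6% to 62.5%. Weighting genome windows to the regions' GC and repeat content gave 50.9% and a ratio of 1.05. Within 10 classes of GC and repeat content the ratio ran from 0.994 to 1.16. At a GC content of 45 to 50% it was 0.994 with under 50% of bases masked and 1.01 with more, and below 40% it was between 1.06 and 1.16.

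**Figure D4:**
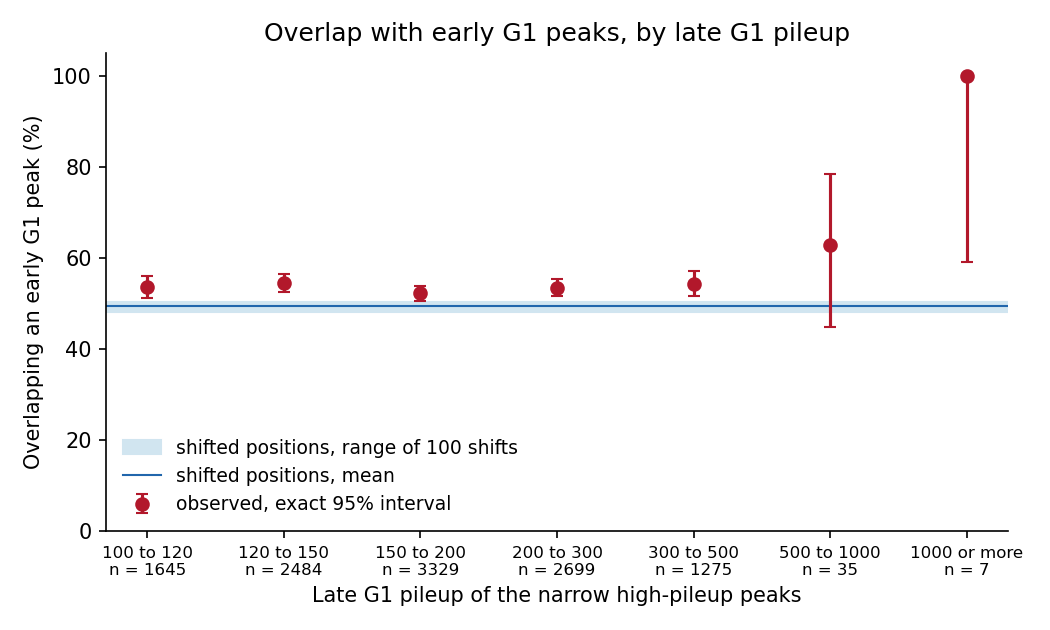
Share of narrow high-pileup late G1 peaks that overlap an early G1 peak, by late G1 pileup, with exact 95% intervals, beside the mean and range of 100 shifts. From 100 to 500 the share stays between 52.2% and 54.5%, and all 7 peaks at 1000 or more overlap.

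Where the lists met, the early peak had an ordinary pileup but was wider than most. The overlapped early peaks had a median pileup of 27.7, against 26.9 for all early peaks and 27.7 for those met by the other narrow late peaks. The overlapped early peaks had a median length of 2406 bp, against 1363 bp for all early peaks. Those met by the other narrow late peaks were as wide, with a median of 2411 bp. Regions that met no early peak had a median late pileup of 172, and those that did had 171.

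A small set was high in both lists. Of the 6142 overlapped regions, 21 met an early peak with a pileup of 100 or more (0.342%, against 0.0778% of all early peaks). For 9 regions (0.0784%, 0.0359 to 0.149) the early peak was also under 300 bp, where shifted positions gave 0.00113% and all late peaks 0.00666%. The Litaf satellite region was 1 of the 9, with an early pileup of 1031, which is not the highest among them. The chromosome 12 mitochondrial copy, not among the 9, had 1244 in a wider early peak.

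Of those of the 9 that lay outside protein-coding genes, 3 are given here, and were named after their values were seen. At chr3:152701655-152701903, 12321 bases from the nearest start site, of Pigk, the late pileup was 436 and the early pileup 562. At chr10:115764265-115764518 the values were 219 and 189. At chr5:32733979-32734233 they were 120 and 235. The Oasl1 region, with 955 in the late list, met no early peak at all.

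**Figure D5:**
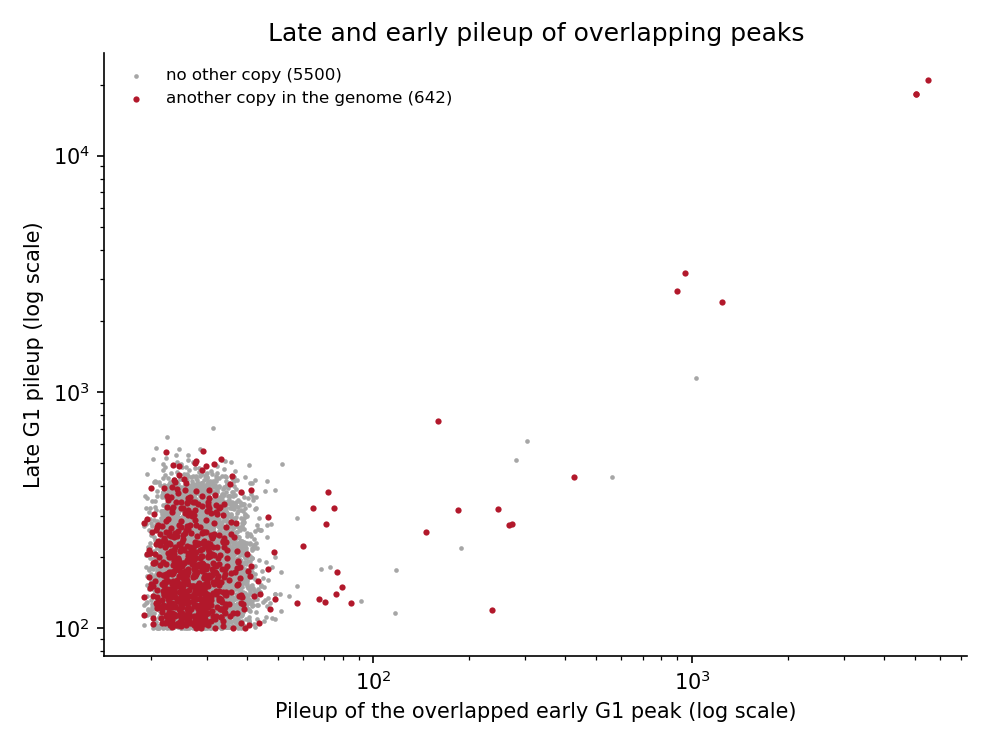
Late G1 pileup against the pileup of the overlapped early G1 peak (both log axes) for the 6142 narrow high-pileup late G1 peaks that meet one, coloured by whether another copy was found in the genome. Pileup is not scaled to depth in either list. Most form a cloud around an early pileup of 27.7, and a few points rise together in both lists.

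Short words for transcription factor sites were about as common in the regions as in the genome. Each word was searched on both strands in the central 200 bp of 11474 regions and 180137 genome windows, and some words overlap. CNAGNNGGC, part of the site of CTCF, the insulator protein, was in 6.63% against 6.17% (ratio 1.07, 1.00 to 1.15). CCGGAAG, for the ETS family that directs endothelial genes, was in 0.671% against 0.596% (1.13, 0.895 to 1.42). TGANTCA, for AP-1, was in 5.82% against 5.93% (0.982, 0.910 to 1.06), and GGGCGGG, for KLF and SP factors, was in 0.967% against 1.03% (0.944, 0.780 to 1.14). The rarest word, GCGCATGC for NRF1, a factor of CpG-rich promoters, was in 40 regions and stood at 1.54 (1.11 to 2.13). That word was in 0.349% of the regions (0.249 to 0.474) and 0.298% of the other narrow peaks (0.230 to 0.379). In wide peaks of high pileup it was in 0.252%. The genome windows here were not matched for GC content. AGATAA, for GATA factors, was at 0.948 (0.902 to 0.996). The intervals are for each of 16 words singly, and no ratio other than that of NRF1 was above 1.13 or below 0.923.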

How the data were processed

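The samples were 7 ATAC-seq libraries, grouped by their titles, and the files used were 1 peak list per group. Per the submitters' processing notes, the tools were Trimmomatic, STAR, bedtools and MACS2, and the build was mm10. MACS2 2.2.7.1 was run by the authors on the merged paired-end fragments of each group in broad mode, per the file headers, with every duplicate retained and no control. Its q-value limits were 0.05 (narrow) and 0.1 (broad), with a background window of 10000 bp. The deposited pileup is a fragment coverage signal, the deposited fold is a ratio to local background, the deposited score is a -log10 q-value, and the deposited length is in bp. These are the authors' values for pools and served to choose and describe peaks; where pileups of both lists stand side by side, they are not scaled to depth. A fragment that was amplified many times counts many times in the pileup.

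The members, lists, motif words and alternatives were chosen with earlier results of these data known. The reference was GRCm38 (mm10) with GENCODE M21. Location was that of the centre, in the order promoter, exon, intron, intergenic. Other copies were found with minimap2 2.31, and shifts were 100 rotations along each chromosome. Genome windows were 9006829 tiles of 266 bp, of which 22518 were aligned for copies, as were 20454 wide peaks by their centre. Regions named were chosen from the 10 strongest, the 10 strongest at promoters, those at promoters of listed genes, the 5 with the strongest early peak and the 5 on each side of the pileup limit, and some of these, the strongest of all among them, are not reported here. Regions in the bodies of listed genes and 3 narrow sites shared by both lists were named after their values were seen. Overlaps of 2000 intervals were enumerated directly as a check, with 0 differences. Python 3.11.15, pandas 2.3.3 and SciPy 1.17.1 were used. No p-value was computed.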

Additional observations from a re-analysis of the deposited data

How the results depend on the processing

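Of 55 alternative values for 10 results, 39 stayed within the 95% interval of the value reported (for the number of regions, within 1.5 times), and 16 did not; the cause was not tested except where the alternative itself changes what is counted. The number of regions was 7345 with a pileup of 150 or more, 2690 with a length under 250 bp and 19115 with a length under 350 bp. With a length under 250 bp the early overlap was 52.5%, the promoter share 2.60%, its ratio to the genome 1.01 and the share with another copy 11.3%. With a pileup of 150 or more, 23.7% were mostly soft-masked. Early overlap was 46.6% when 50% of the shorter region had to be shared and 29.4% against the upper 50% of the early list. The promoter share was 6.38% within 3 kb, 2.54% for any overlap and 5.73% with all gene types. Genome windows gave 6.87%, 2.87% and 6.28% in the same order. Any soft-masked base was found in 81.1%, another copy at 98% identity in 3.97%, and the central 150 bp had a median GC content of 42.7%. The early overlap was between 1.07 and 1.09 times the shifted level in all its alternatives, a local shift included. No paired analysis was possible because each group was 1 pooled list and no result comes from a test. Depth per library was not analysed here, and the pools do not show which of the 4 late G1 libraries carried a region.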

Other observations

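Very long genes held the most regions per gene. After Fgfr2 and Gm20388, whose gene models span 2.96 and 4.43 Mb and held 20 regions each, Lsamp held 13, Cntnap2 held 12, and Lrp1b and Nrg1 11 each. Nrg1, which encodes the growth factor neuregulin, had 10.3 per Mb in a gene of 1.07 Mb, and Lsamp had 5.92. These genes were chosen by their counts, so the rates are a description.

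Chromosomes X and Y carried 421 and 102 further late G1 peaks within the same limits. The fullest 1 Mb window on the autosomes, with 14 regions, began at position 10000001 of chromosome 8, and windows on chromosomes 2 and 13 held 13 each.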
